A study of Rattus norvegicus with 12 samples.

Results

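Noncoding transcripts located at genes for motor proteins and cytoskeletal regulators were measured in lumbosacral spinal cord taken from rat fetuses. They were chosen by name alone: every transcript of the deposited lncRNA table whose AceView locus name begins with the symbol stem of a kinesin, myosin, dynein, dynactin, tubulin, Map1, Macf, spectrin, ankyrin or Arhg gene. The rule found 100 of the 22591 transcripts, at 60 loci on 18 chromosomes, and took no Macf and no spectrin transcript. A name such as Klc1.h gives the locus and, after the point, the AceView variant letter, but the transcript need not be the messenger RNA of that gene. A transcript at Kif26b is filed under the locus name RGD1560022 and is therefore not among the 100.

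The series compares ARM fetuses, labelled as having anorectal malformations induced by ETU (ethylenethiourea, a teratogen), with normal fetuses. All are Wistar rats at embryonic day 19, and total RNA of the lumbosacral cord was sequenced in 3 ARM and 3 normal libraries for lncRNA. Each ARM sample carries the exposure in its label, so exposure and malformation cannot be told apart. Nothing in the labels says whether the libraries came from separate animals or litters, and p-values therefore measure only the spread between these libraries.

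The ARM libraries held 3285614 to 3721901 counts in this table and the normal libraries 3428655 to 3865088. CPM are counts divided by the TMM-scaled sum of this table and multiplied by 1000000, and 3 counts, the limit a count of 0 allows, equal 0.801 to 0.916 CPM. This limit covers counting error only. The table holds lncRNA alone, so its sums are not the depth of the whole libraries. CPM per kilobase, used to compare levels between transcripts, are CPM divided by transcript length. Transcripts were present at 7 of 16 listed cord neuron genes, including Elavl3, Nefl and Syt1, and their summed level was 338 to 371 CPM in ARM against 282 to 330 CPM in normal libraries. Those sums do not overlap, and their part in any difference below was not tested. In bulk tissue, fewer cells of a type and less RNA per cell cannot be told apart. At skeletal muscle genes the sum was 1.13 to 5.19 CPM in ARM against 0 to 0.543 CPM in normal libraries, over transcripts at 3 of 10 genes. Of 9 listed sensory ganglion genes Ntrk2 and Pou4f1 had transcripts, which summed to 515 to 571 CPM in ARM against 395 to 539 CPM in normal libraries, and a transcript at Pou4f1 was the only one of the 10 marker lists that edgeR called. The part of these genes in any difference below was not tested. The only transcript at 6 listed lumbosacral Hox genes, at Hoxc10, was at 2.55 to 2.75 CPM in ARM against 1.63 to 4.45 CPM in normal libraries.

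Kinesins carry cargo along microtubules, mostly away from the cell body, and cytoplasmic dynein with its partner complex dynactin carries it back. Myosins move along actin, and ankyrins anchor membrane proteins to the spectrin skeleton of the axon. The long axons of spinal motor neurons depend on this transport. The measurements here are of noncoding transcripts and say nothing about the amount of these proteins.

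The loci differed far more from each other than the groups did. Summed over all 100 transcripts the level was 3393, 3479 and 3461 CPM in ARM libraries against 3429, 3167 and 3516 CPM in normal libraries. The groups overlapped, and the transcripts took 0.338% to 0.349% of counts in ARM and 0.303% to 0.341% in normal libraries. Klc1.h, Ank2.c and Arhgef12.b together made up 55.0% of this sum, and the 10 most abundant transcripts 76.8%. Per length, the median level over all libraries was 8.61 CPM per kilobase, against 7.49 CPM per kilobase for the whole table, and 61 of the 100 reached 5 CPM per kilobase. Unspliced transcripts were fewer than elsewhere, 23 of 100 against 49.7% of all AceView-named transcripts, and had a higher median level (15.8 CPM per kilobase) than the 77 spliced ones (5.84 CPM per kilobase).

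**Figure D1:**
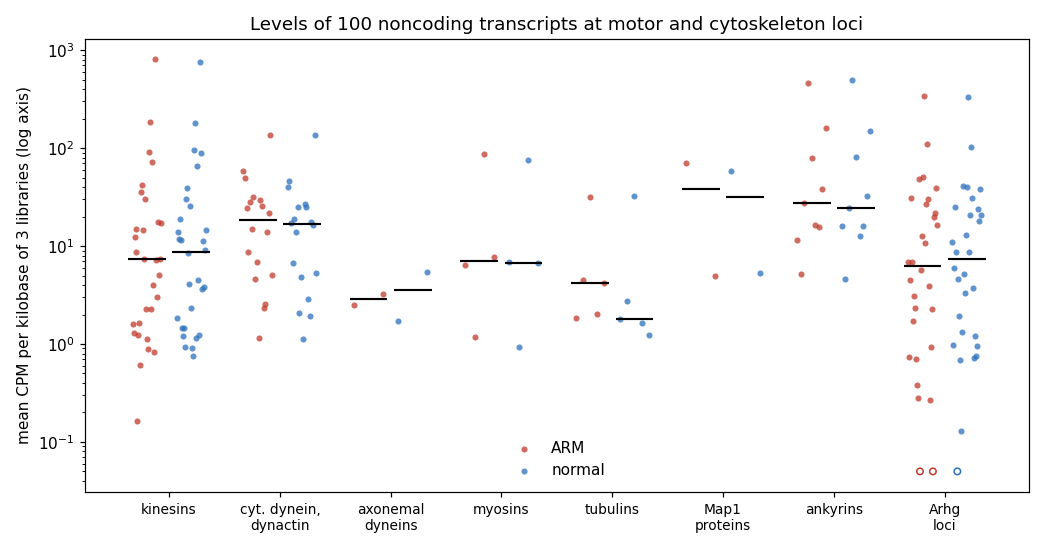
Mean CPM per kilobase over 3 libraries (log axis) of each of the 100 transcripts by role, with ARM in red left of normal in blue and black lines for medians. Open circles at the bottom are transcripts with 0 counts in all 3 libraries of the group. Klc1.h tops the kinesins, Ank2.c the ankyrins and Arhgef12.b the Arhg loci in both groups.

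Across ARM and normal cord no transcript at these loci passed the test. EdgeR's quasi-likelihood test with Benjamini-Hochberg adjustment over the whole table called 0 of the 61 transcripts that had enough counts to be tested, and the smallest edgeR adjusted p was 0.832. In the whole table it called 0.12% of 13343 transcripts. Limma-voom also called 0 of the 61, against 0.12% of all transcripts. DESeq2 called 0 of the 60 for which it gave an adjusted p, leaving Klc1.j without one, against 0.346% of 13297 transcripts. At an unadjusted p under 0.05 there were 4 of 61 (6.56%), near the 5.98% of all tested transcripts. The groups of 3 libraries did not overlap for 7 of 61 (11.5%), against 11.9% of all. Of these 7, 6 were higher in ARM and 1 was lower, where the whole table gave 7.29% higher and 4.58% lower. Estimates were higher in ARM for 40 and lower for 21 of the 61, with a median log2 fold change of 0.11, while 51.5% of all tested transcripts had higher estimates with a median of 0.011.

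These nulls differ in how much they show. For 33 of the 61 transcripts the 95% interval of the log2 fold change lay wholly between -1 and 1, so a change as large as 2-fold is outside it, and the same held for 59.7% of all tested transcripts. For 11, among them Ank2.c, Ank3.q, Kif2a.b, Kif2a.c, Dync1li1.d, Arhgef12.b and Tubb2a.d, it lay between -0.5 and 0.5. For the remaining transcripts a 2-fold difference in at least 1 direction was not excluded, given their counts and the spread between libraries. The 39 untested transcripts had 4 to 114 counts over the 6 libraries, with a median of 16, and their difference was not tested. Among them, only Arhgdib.d is given a bound below, from counts alone.

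**Figure D2:**
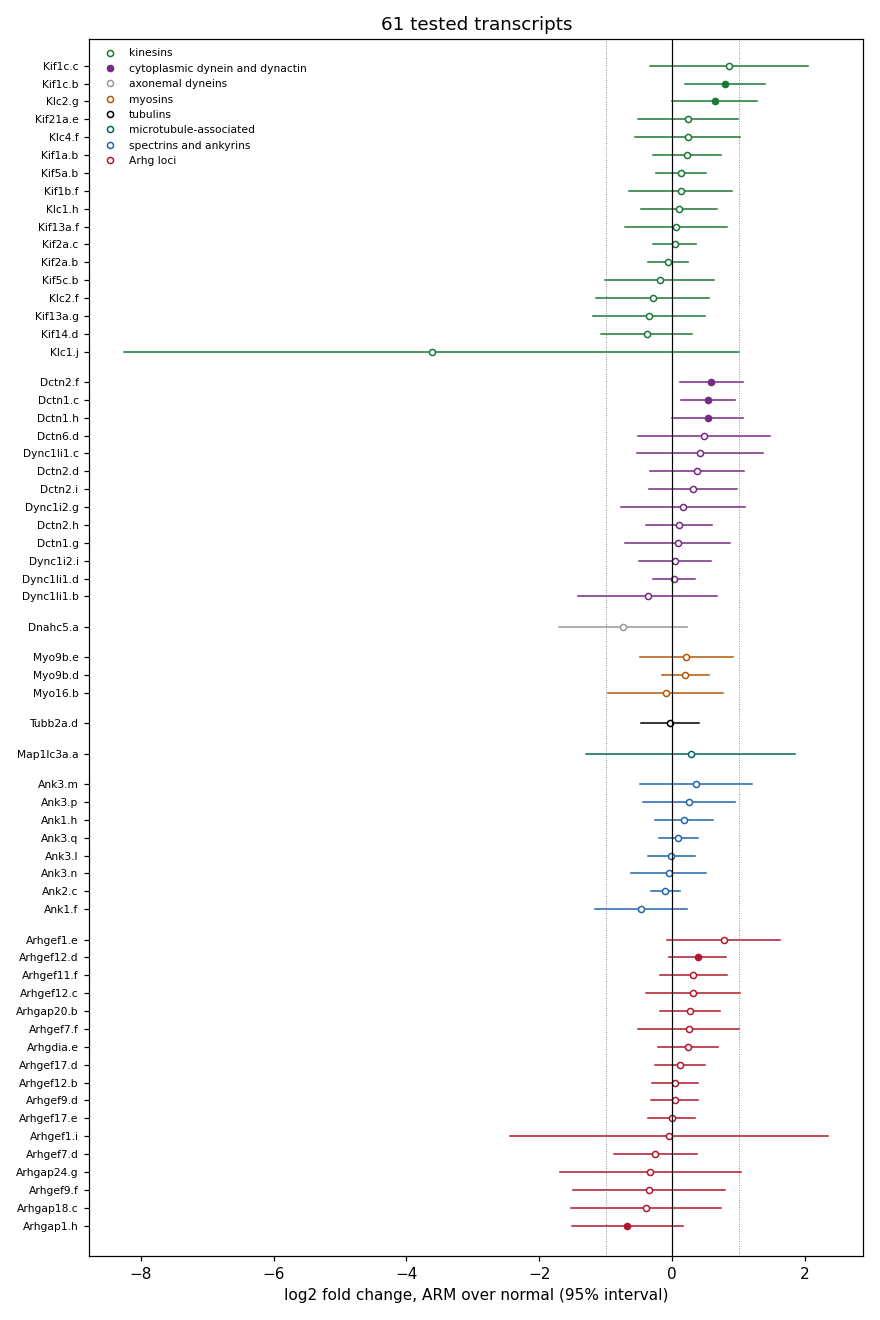
Log2 fold change, ARM over normal, with its 95% interval for the 61 tested transcripts, grouped by role and ordered by size. Filled circles mark the 7 whose groups did not overlap, and dotted lines mark -1 and 1. Klc1.j has by far the widest interval, from -8.25 to 1.01.

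Among the kinesins, 17 of 30 transcripts were tested, with 11 higher and 6 lower estimates and a median of 0.10. The most abundant was Klc1.h, at the gene of a kinesin light chain that binds cargo. It stood at 597, 811 and 708 CPM in ARM against 745, 436 and 793 CPM in normal libraries. The groups overlapped (log2 fold change 0.10, SE 0.24), and the lowest value was that of normal replicate 2. In that same library the overlapping Klc1.j was high: its counts were 11, 14 and 23 in ARM against 1, 616 and 1 in normal libraries. Both transcripts end within 1 base of each other on chromosome 6, Klc1.h (NONRATT024689.2) at 136362211 to 136363671 and Klc1.j (NONRATT024688.2) at 136358084 to 136363672. The build of these rat coordinates is not given in the sources used here. Klc1.j took 27.6% of the pair's counts in normal replicate 2 and 0.0342% to 0.859% in the other 5 libraries. Summed, the pair had 1968, 2879 and 2677 counts in ARM against 2511, 2229 and 2923 counts in normal libraries, with a log2 fold change of -0.0065 (SE 0.16, 95% interval -0.38 to 0.37). The Klc1.j estimate of -3.62 (SE 1.95) was 3.83 without normal replicate 2, so its direction rests on that library.

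**Figure D3:**
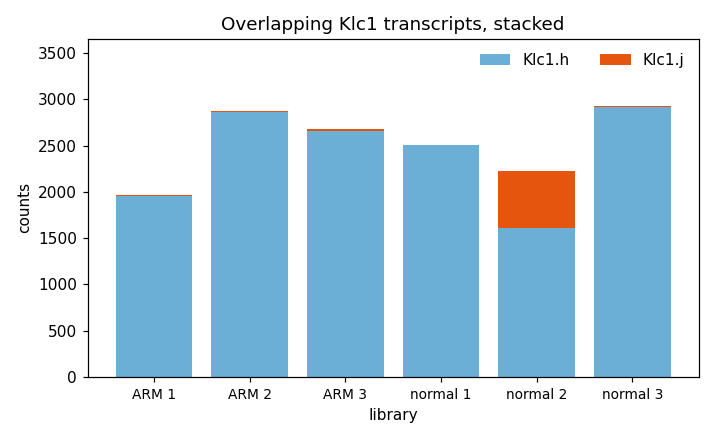
Counts of the overlapping Klc1.h (blue) and Klc1.j (orange) transcripts, stacked, in each of the 3 ARM and 3 normal libraries. Klc1.j is visible chiefly in normal replicate 2, with 616 counts, where Klc1.h is at its lowest with 1613.

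The next most abundant kinesin transcripts lie at Kif2a, which encodes a microtubule-depolymerising kinesin. Kif2a.c stood at 80.0, 86.4 and 88.1 CPM in ARM against 73.9, 80.8 and 93.6 CPM in normal libraries (log2 fold change 0.035, SE 0.14). Kif2a.b stood at 69.3, 60.3 and 58.5 CPM in ARM against 66.2, 64.3 and 65.4 CPM in normal libraries (-0.059, SE 0.13). For both, the groups overlapped and the intervals reached from -0.36 to 0.36 at most. They overlap each other and a transcript at Dimt1, and summed with it the estimate was -0.23 (SE 0.15, 95% interval -0.59 to 0.12). The Kif2a locus sum, without the Dimt1 transcript, had -0.0052 (SE 0.11). Transcripts at the neuronal transport kinesins Kif1a (0.22), Kif5a (0.13), Kif5c (Kif5c.b, -0.19) and Kif21a (0.24) were also without a separation of the groups.

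Kif1c.b and Klc2.g were the kinesin transcripts whose groups did not overlap, 2 of 17 tested (11.8%), against 11.9% of all tested transcripts. Kif1c.b (NONRATT004508.2, chromosome 10, 57330377 to 57346968), at the gene of a motor for vesicle transport, stood at 7.33, 10.2 and 7.74 CPM in ARM against 5.34, 4.32 and 4.88 CPM in normal libraries. All ARM libraries lay above all normal ones, but the difference did not pass (0.79, SE 0.25, edgeR adjusted p 0.832). The second transcript of this locus, Kif1c.c, lies within the first and had an estimate of 0.86 (SE 0.50). Summed over the locus, the level was 12.9 ± 0.902 CPM in ARM and 7.30 ± 1.42 CPM in normal libraries (SD, n = 3 each), with a log2 fold change of 0.82 (SE 0.22, 95% interval 0.29 to 1.34). This had the smallest unadjusted p of the 36 tested loci, 0.00816 by edgeR's quasi-likelihood test, and an edgeR adjusted p of 0.832. Klc2.g, at another light chain gene, stood at 6.72, 9.34 and 6.67 CPM in ARM against 5.64, 4.05 and 4.88 CPM in normal libraries (0.64, SE 0.27, edgeR adjusted p 0.833). Its locus mate Klc2.f, which does not overlap it, had an estimate of the opposite sign (-0.29, SE 0.36). Klc2.g overlaps the untested Klc2.i, and their sum had 0.60 (SE 0.23, edgeR adjusted p 0.830). Summed over the Klc2 locus, the estimate was 0.35 (SE 0.22, 95% interval -0.18 to 0.87).

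Transcripts of a single kinesin locus could also behave unlike each other. At Kif13a, which encodes an endosome motor, the counts of Kif13a.e were 4, 2 and 4 in ARM against 100, 2 and 2 in normal libraries. A single normal library was high, and the other 5 were near 0. The other variants did not share this. Kif13a.g had 38, 22 and 53 counts in ARM against 61, 41 and 43 in normal libraries (-0.35, SE 0.35), Kif13a.f had 44, 24 and 28 against 33, 27 and 35 (0.055, SE 0.32), and Kif13a.d stayed at 1 to 4 counts. The mitotic kinesins gave mostly low levels: Kif14.d had 17 to 29 counts in ARM against 25 to 35 in normal libraries (-0.39, SE 0.29), and those of Kif22, Kif23 and Kif2c had 9 or fewer counts in every library.

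Among cytoplasmic dynein and dynactin transcripts, 12 of 13 tested (92.3%) had higher estimates in ARM, against 51.5% of all tested transcripts. The groups did not overlap for 3 of the 13 (23.1%), against 11.9% of all tested. The median of the 13 was 0.32, and none passed. Their summed level, over all 18 transcripts, was 285, 302 and 309 CPM in ARM against 250.1, 275 and 246 CPM in normal libraries, without overlap. The median was 0.13 without normal replicate 3 and 0.13 without ARM replicate 3. All 8 tested dynactin transcripts had higher estimates, from 0.083 to 0.59 with a median of 0.43. Of the 5 tested dynein transcripts 4 had higher estimates and 1 a lower one, from -0.37 to 0.41 with a median of 0.045. The difference between these families was not tested. Both the 13 and the 8 include transcripts that overlap or share a locus and are not independent.

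Dctn1 encodes the largest dynactin subunit, which contacts both dynein and the microtubule. Dctn1.c (NONRATT020616.2, chromosome 4, 114885719 to 114887317) stood at 52.5, 53.2 and 63.3 CPM in ARM against 34.4, 46.5 and 35.0 CPM in normal libraries. Every ARM library lay above every normal library (log2 fold change 0.54, SE 0.17, 95% interval 0.14 to 0.95, edgeR adjusted p 0.832). Dctn1.h, which lies apart from it at 114893648 to 114894334 (NONRATT020617.2), stood at 18.6, 13.6 and 18.7 CPM in ARM against 12.2, 13.2 and 9.77 CPM in normal libraries, again without overlap (0.53, SE 0.22, edgeR adjusted p 0.833). Dctn1.g, which overlaps Dctn1.c, stood at 11.9, 21.5 and 18.7 CPM in ARM against 14.5, 11.6 and 23.1 CPM in normal libraries, and these groups overlapped (0.083, SE 0.33). Leaving out 1 library moved Dctn1.g between -0.12 and 0.41. Summed over the Dctn1 locus, the level was 90.7 ± 9.03 CPM in ARM and 66.8 ± 5.19 CPM in normal libraries (SD, n = 3 each; 0.44, SE 0.14, 95% interval 0.12 to 0.77, edgeR adjusted p 0.832).

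Dctn2 encodes dynamitin, the subunit that holds the shoulder of dynactin together. Dctn2.f (NONRATT025874.2, chromosome 7, 70567180 to 70568044) stood at 12.5, 13.3 and 11.5 CPM in ARM against 7.42, 8.11 and 9.23 CPM in normal libraries. The groups did not overlap (0.59, SE 0.20, edgeR adjusted p 0.832). The 3 other transcripts, which overlap each other at lower coordinates and do not overlap Dctn2.f, had smaller estimates whose groups overlapped: Dctn2.d 0.38 (SE 0.30), Dctn2.i 0.32 (SE 0.28) and Dctn2.h 0.11 (SE 0.21). The locus sum was 52.5 ± 4.58 CPM in ARM and 42.6 ± 3.49 CPM in normal libraries (SD, n = 3 each; 0.30, SE 0.14, 95% interval -0.022 to 0.63). At Dctn6, a pointed-end subunit, Dctn6.d stood at 7.33, 6.23 and 5.87 CPM in ARM against 4.75, 7.03 and 2.17 CPM in normal libraries, with overlap (0.47, SE 0.42, with 0.90 without normal replicate 2 and 0.13 without normal replicate 3).

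**Figure D4:**
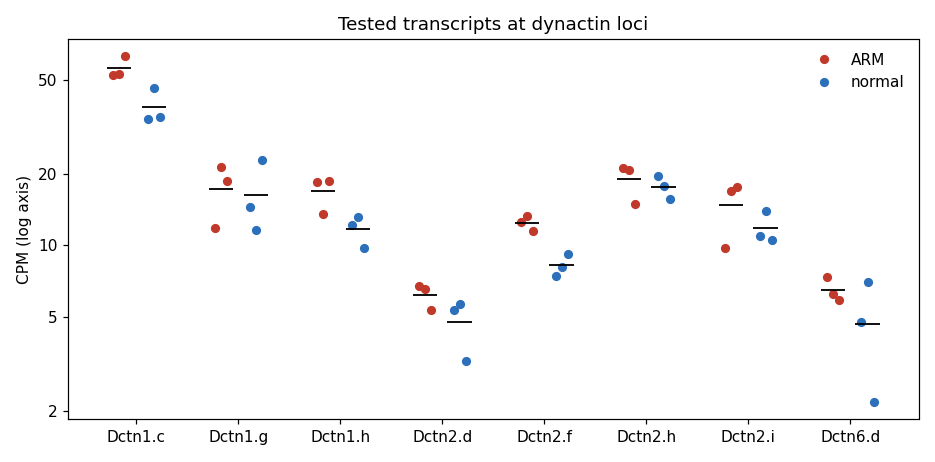
CPM (log axis) of the 8 tested dynactin transcripts in each library, ARM in red left of normal in blue, with black lines for means. All 8 means are higher in ARM, and the groups are apart only for Dctn1.c, Dctn1.h and Dctn2.f.

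Because the dynactin estimates shared a sign, the RefSeq promoter windows of these genes are shown, which exist for Dctn1 and Dctn2 in build GRCr8. Each runs from 250 bases before to 50 after the start, 5′ to 3′, both on the plus strand, at chr4:117241473-117241772 and chr7:64977216-64977515. The noncoding transcripts cannot be placed on this build, so the windows describe the genes and not the transcripts. Capitals mark matches, on either strand, to GGGCGG (the GC box), CCAAT and TATAAA (the TATA box).
Dctn1: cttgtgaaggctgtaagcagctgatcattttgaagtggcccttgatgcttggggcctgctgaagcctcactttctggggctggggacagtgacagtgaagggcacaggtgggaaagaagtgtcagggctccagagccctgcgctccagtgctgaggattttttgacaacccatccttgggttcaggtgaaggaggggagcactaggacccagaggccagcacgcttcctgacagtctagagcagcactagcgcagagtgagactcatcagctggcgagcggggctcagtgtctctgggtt
Dctn2: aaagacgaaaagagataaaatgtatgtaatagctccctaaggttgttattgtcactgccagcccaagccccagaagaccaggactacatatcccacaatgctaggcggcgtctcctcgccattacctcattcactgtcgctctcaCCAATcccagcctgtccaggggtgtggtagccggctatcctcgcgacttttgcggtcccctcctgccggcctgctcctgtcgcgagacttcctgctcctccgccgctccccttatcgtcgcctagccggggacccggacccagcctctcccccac
The windows are alike in base composition, with 57.3% G and C at Dctn1 and 58.7% at Dctn2, against a median of 52.3% over 27457 promoters. Dctn1 held none of the 3 motifs. Dctn2 held CCAAT, starting at position -105 from the start site. CCAAT occurs in 37.7% of all windows, while GGGCGG occurs in 34.9% and TATAAA in 14.3%.

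Dync1li1.d, at the gene of a light intermediate chain that links dynein to cargo adaptors, stood at 86.7, 100.5 and 84.9 CPM in ARM against 86.6, 82.95 and 97.1 CPM in normal libraries. The groups overlapped, and the 95% interval ran from -0.29 to 0.35 around a log2 fold change of 0.029. At Dync1i2, an intermediate chain gene, Dync1i2.g (0.16, SE 0.39) and Dync1i2.i (0.045, SE 0.23) were tested, and Dync1i2.j and Dync1i2.m, with 2 to 13 counts in each library, were not. Dync1i2.g had 49, 47 and 62 counts in ARM against 57, 64 and 22 in normal libraries, and its estimate was -0.19 without normal replicate 3.

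Axonemal dyneins drive the beating of cilia, which in cord are found on the ependymal cells of the central canal. The transcript at Dnahc5 (RefSeq symbol Dnah5) stood at 6.72, 3.40 and 2.67 CPM in ARM against 8.31, 7.84 and 5.16 CPM in normal libraries. The groups overlapped through ARM replicate 1 (-0.74, SE 0.41, edgeR adjusted p 0.845). Dnah10.a was too low to test, at 4 to 10 counts in ARM against 3 to 6 in normal libraries. Of 8 listed genes of ependymal and ciliated cells only Ccdc39 had a transcript, at 0.611 to 0.850 CPM in ARM against 0.270 to 1.90 CPM in normal libraries, which reaches below the limit a count of 0 allows.

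Of 4 myosin transcripts 3 were tested. Myo9b.d, at the gene of an unconventional myosin, stood at 122, 116 and 114 CPM in ARM against 93.2, 92.7 and 122 CPM in normal libraries. Normal replicate 3 lay among the ARM libraries (0.20, SE 0.15, 95% interval -0.16 to 0.55). Myo9b.e, a shorter transcript of the locus, had an estimate of 0.21 (SE 0.29), and Myo16.b, at the gene of a neuronal myosin, had -0.096 (SE 0.36). Myo1f.c had 1 or 2 counts in every library.

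Transcripts at tubulin genes, which encode the microtubule itself, were scarce. Tubb2a.d was the tested one, at 27.5, 21.0 and 25.6 CPM in ARM against 27.3, 21.6 and 26.9 CPM in normal libraries, and the groups spanned nearly the same range (-0.033, SE 0.18). Tubb2a.c had 4 to 6 counts in ARM against 1 to 5 in normal libraries, and Tubg1.e 4 to 8 against 4 to 6. Tuba1b.c had exactly 2 counts in all 6 libraries. Dync1i1.e was the other transcript of the 100 with the same count in every library, also 2, and 500 transcripts of the whole table had an equal count above 0 in all 6. At the neighbouring gamma-tubulin gene Tubg2, Tubg2.a had 13, 0 and 12 counts in ARM against 7, 0 and 0 in normal libraries. Among the Map1 names, Map1lc3a.a, at the gene of an autophagosome protein first found with microtubules, had 67, 284 and 193 counts in ARM against 122, 277 and 54 in normal libraries. Both groups spanned a wide range (0.28, SE 0.66), and the estimate was -0.22 without ARM replicate 2, -0.13 without normal replicate 3 and 1.00 without normal replicate 2. Map1s.b had 6 or 7 counts in ARM against 4 to 11 in normal libraries.

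Of the 61 tested transcripts Ank2.c had the smallest SE. Ank2.c (NONRATT016861.2, chromosome 2, 231224643 to 231226057), at the gene of the ankyrin of the axon shaft, stood at 675, 639 and 670.3 CPM in ARM against 726, 675 and 734 CPM in normal libraries. The groups met at 675 CPM, and the log2 fold change of -0.11 (SE 0.092) had a 95% interval of -0.32 to 0.11. Ank3, whose protein organises the axon initial segment, had 5 transcripts, all tested, from 14.6 to 155 CPM per kilobase over all libraries. The highest, Ank3.q, stood at 184, 162 and 187 CPM in ARM against 170.0, 176 and 154 CPM in normal libraries (0.094, SE 0.12). The other 4 ranged from -0.051 (Ank3.n) through -0.013 (Ank3.l) and 0.25 (Ank3.p) to 0.36 (Ank3.m), with overlapping groups. At Ank1, the ankyrin of red cells that muscle and brain also express, Ank1.h (0.18, SE 0.19) and Ank1.f (-0.47, SE 0.29) had opposite signs. They overlap each other and an unnamed transcript, and summed with it the estimate was 0.20 (SE 0.15). The Ank1 locus sum had 0.058 (SE 0.16).

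The remaining transcripts lie at loci with the Arhg stem. Arhgef12.b, the most abundant of them, stood at 554, 473 and 515 CPM in ARM against 500.2, 415 and 579.5 CPM in normal libraries, and normal libraries held both the lowest and the highest value (0.045, SE 0.15). Arhgef17.d stood at 147, 173 and 151 CPM in ARM against 147, 121 and 167 CPM in normal libraries (0.12, SE 0.16), and Arhgef17.e had an estimate of -0.0076 (SE 0.15). Arhgef12.d (NONRATT028456.2, chromosome 8, 47280473 to 47281646) was the transcript of these loci whose ARM libraries all lay above the normal ones. It stood at 35.1, 28.0 and 31.8 CPM in ARM against 25.8, 26.7 and 20.1 CPM in normal libraries (0.39, SE 0.18, edgeR adjusted p 0.837). Its locus neighbours Arhgef12.b and Arhgef12.c (0.31, SE 0.30) did not separate the groups.

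Transcripts at the Arhgap genes were mostly too low to test, 4 of 11 passing the filter. Arhgap1.h (NONRATT018361.2, chromosome 3, 80556666 to 80572874) was the only transcript of the 61 whose ARM libraries all lay below the normal ones, at 3.05, 2.55 and 3.74 CPM in ARM against 3.86, 4.05 and 7.05 CPM in normal libraries. The gap between the groups was narrow (-0.67, SE 0.35, edgeR adjusted p 0.837), and summed with its 2 overlapping transcripts the estimate was 0.16 (SE 0.14). Arhgdia.e stood at 49.5, 46.4 and 46.4 CPM in ARM against 49.3, 41.1 and 30.7 CPM in normal libraries (0.23, SE 0.19). Arhgdib.d, at a gene typical of blood cells, had 0 counts in all ARM libraries against 13, 31 and 0 in normal libraries. The ARM sum was set to 3 counts, the limit for the group, and the normal counts were taken as exact. On these terms Arhgdib.d was at least 14.4-fold lower in the pooled ARM counts, a bound for counting error and not for spread between libraries. This bound was 6.48-fold without normal replicate 2, which held 31 of the 44 normal counts, and 21.9-fold without normal replicate 3. Normal replicate 3 was at 0 too, so the groups overlapped and the difference was not tested. Summed with its 1 overlapping transcript, which has no name, Arhgdib.d had 0, 1 and 0 counts in ARM against 15, 31 and 1 in normal libraries. Listed blood genes had transcripts at Hbb and Ptprc, which summed to 3.36 to 5.07 CPM in ARM against 3.26 to 9.73 CPM in normal libraries.

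**Figure D5:**
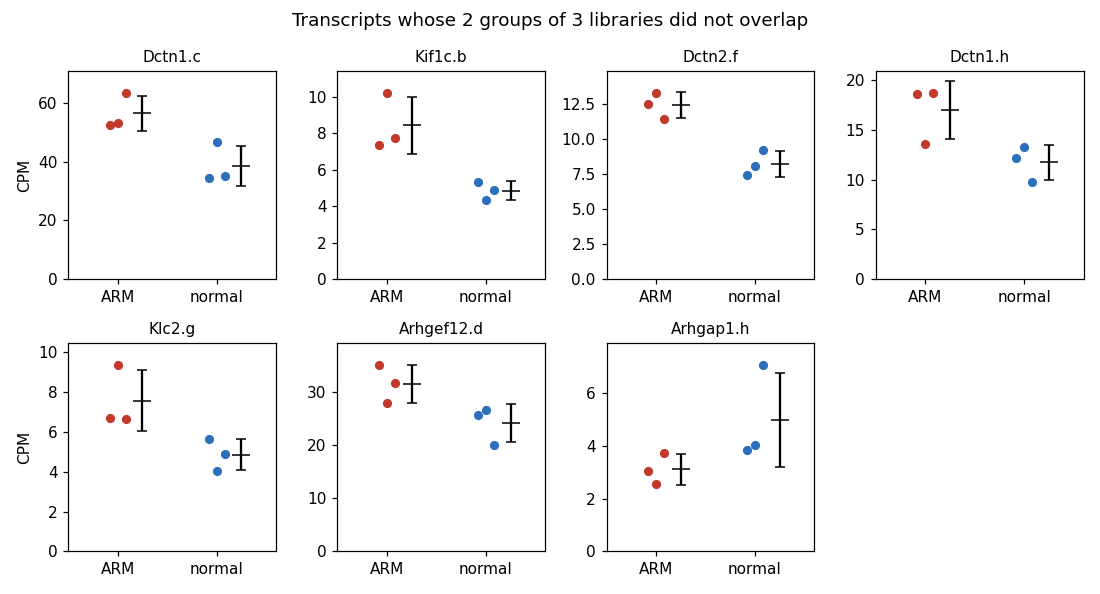
CPM in each library of the 7 transcripts whose groups did not overlap, with ARM in red left of normal in blue, and mean and SD (n = 3) in black beside the points. The first 6 are higher in ARM and Arhgap1.h is lower, and none passed the adjusted threshold.

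Several transcripts, chosen here after seeing their values, swung widely between libraries of the same group. Of 73 transcripts that reached 10 counts in some library, 7 had 2 or fewer counts in another (9.59%), against 10.1% of the whole table. They were Klc1.j, Kif13a.e, Kif18b.c, Dctn6.c, Tubg2.a, Arhgdib.d and Arhgef1.i. Arhgef1.i had 2, 32 and 23 counts in ARM against 1, 26 and 33 in normal libraries, with a single low library in each group, and its interval ran from -2.44 to 2.35. Klc1.j and Kif13a.e each had 1 library at least 5 times above every other.

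Other cytoskeletal genes were likewise without a call. Of 92 listed partner genes, among them neurofilaments, stathmins, tropomyosins and dynein regulators, 44 had transcripts, 83 in all, of which 66 were tested. Estimates were 33 higher and 33 lower with a median of -0.0019, edgeR called 0 where it called 0.12% of all, and 4 of 66 had an unadjusted p under 0.05 where 5.98% of all did. The groups did not overlap for 7 of the 66 (10.6%, against 11.9% of all). All 7 were higher in ARM and none lower, where 7.29% of all tested transcripts were separated as higher and 4.58% as lower. The most abundant were Map6.c, at the gene of a microtubule stabiliser, with 2016 ± 137 CPM in ARM and 2041 ± 332 CPM in normal libraries (SD, n = 3 each; -0.018, SE 0.14), and Pafah1b1.c, at the gene of the dynein regulator LIS1, with 770.2 ± 8.65 CPM in ARM and 785 ± 91.9 CPM in normal libraries (SD, n = 3 each; -0.027, SE 0.11).

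Counts were also summed by locus. Of the 60 loci, 36 could be tested and 0 passed by edgeR, against 0.12% of all entries of the summed table. The smallest edgeR adjusted p was 0.832, 2 had an unadjusted p under 0.05 (Kif1c and Dctn1) where 5.98% of all entries did, and 3 were separated as higher (Kif1c, Dctn1 and Dctn2) and 1 as lower (Arhgap1), against 11.9% of all entries. Of the most abundant loci, Klc1 had 710.2 ± 107 CPM in ARM and 713 ± 99.2 CPM in normal libraries (SD, n = 3 each). In the same order Ank2 had 661 ± 19.2 and 712 ± 32.2 CPM, and Arhgef12 551 ± 45.3 and 527 ± 78.6 CPM. Ank3 had 247 ± 24.1 and 231 ± 19.7 CPM, and Arhgef17 227 ± 15.5 and 215 ± 32.9 CPM. Kif2a had 148 ± 1.54 and 148 ± 9.81 CPM, and Myo9b 121 ± 4.50 and 105 ± 16.9 CPM. Dync1li1 had 111 ± 4.09 and 108 ± 4.25 CPM. The groups overlapped for each of these loci.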

How the data were processed

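RNA of lumbosacral spinal cord from embryonic day 19 was sequenced by the authors. The deposited lncRNA table lists raw counts for each transcript beside its position and length, per the file headers. Its 6 further columns of values per sample were not used here, and counts, which the test needs, were the measure kept. Among the tools in the submitters' processing notes are TopHat2 2.0.9, Cufflinks 2.1.1, Cuffdiff and CASAVA 1.8, whose roles are not stated. The notes give a mouse build, although the transcript identifiers are rat ones. Which build the positions use, how reads were counted and whether strand was kept is not given in the sources used here. Whether reads of overlapping or antisense transcripts were kept apart is therefore unknown. Transcripts are called overlapping where their spans from start to end meet, introns included, on either strand. Such transcripts need not share an exon. The 6 miRNA libraries were not used here.

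Columns were matched to samples by heading. Those of the normal libraries match the group only, so their replicate numbers are names.

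Counts of all 22591 transcripts were tested with edgeR 4.0.16 in R 4.3.3 (TMM, default expression filter, quasi-likelihood fit with phenotype alone, Benjamini-Hochberg threshold 0.05). The SE was taken as the size of the log2 fold change over the root of its F statistic, and 95% intervals use the test's degrees of freedom. Alternatives were DESeq2 1.42.0, its size factors, total counts, other filters, limma-voom (limma 3.58.1), a threshold of 0.1, each library left out, and sums over loci or overlapping transcripts. The pipeline was tested on simulated data. Members, lists and rules were chosen with earlier results of these data known. Named were, by role, the 3 most abundant transcripts, those whose groups did not overlap, those with 0 counts in 1 group and a mean of at least 10 in the other, loci with 4 or more transcripts, and all tubulin and Map1 transcripts. Others were chosen after their values were seen. A summary over the Arhg transcripts as a group is not reported here. Of the 60 loci, 59 matched a RefSeq gene (GRCr8), all protein-coding and on the chromosome the table gives.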

Additional observations from a re-analysis of the deposited data

How the results depend on the processing

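No transcript at these loci, no locus sum and no partner transcript passed under any of the alternatives run (edgeR with other scaling or filters, a threshold of 0.1, DESeq2, limma-voom, each library left out), with no adjusted p from DESeq2 for Klc1.j. The smallest adjusted p of the 100 transcripts was 0.271 over the alternatives, for edgeR without normal replicate 2. The count called in the whole table was 16, against 9 with no filter, 46 with DESeq2 and 19 to 29 with 1 library left out (29 without ARM replicate 1). Separated transcripts numbered 7, against 11 to 18 with 1 library left out, which fewer libraries favour by construction. The share over all tested transcripts in those fits is not given here, so these counts are not read as a result. No paired analysis was possible because the labels link no ARM sample to a normal one, and the normal columns match their group only.

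With 1 library left out, the expression filter was run again and 63 to 66 transcripts were tested, against 61. Role medians then ranged from 0.13 to 0.42 for cytoplasmic dynein and dynactin, 0.11 to 0.34 for myosins and -0.12 to 3.06 for tubulins. The main tubulin median rests on 1 tested transcript, Tubb2a.d, whose own range is given below. With no filter the medians of axonemal dyneins and tubulins were -0.13 and 0.27. More transcripts enter these fits and those with 1 library left out, and no other cause was tested.

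Of 42 named transcripts 23 kept their sign throughout. With 1 library left out the ranges of the others were -0.070 to 0.076 for Ank3.l, -0.16 to 0.013 for Ank3.n, -0.66 to 0.51 for Arhgef1.i, -0.077 to 0.17 for Arhgef12.b, -0.0048 to 0.23 for Arhgef17.d, -0.088 to 0.11 for Arhgef17.e, -0.12 to 0.41 for Dctn1.g, -0.19 to 0.38 for Dync1i2.g, -0.061 to 0.23 for Dync1i2.i, -0.053 to 0.097 for Dync1li1.d, -0.31 to 0.23 for Kif13a.f, -0.059 to 0.13 for Kif2a.c, -0.45 to 0.055 for Kif5c.b, -0.13 to 0.26 for Klc1.h, -4.24 to 3.83 for Klc1.j, -0.22 to 1.00 for Map1lc3a.a, -0.32 to 0.28 for Myo16.b and -0.14 to 0.070 for Tubb2a.d. Total-count scaling gave 0.031 for Ank3.l, 0.0091 for Arhgef1.i, 0.037 for Arhgef17.e and 0.010 for Tubb2a.d. Limma-voom gave 0.19 for Arhgef1.i, -0.0060 for Kif13a.f and 0.46 for Klc1.j. Summed over overlapping transcripts, the values were 0.076 for Ank3.l and Ank3.n, 0.16 for Arhgap1.h, -0.083 for Dync1i2.g, -0.23 for Kif2a.c, 0.029 for Kif5c.b, -0.0065 for Klc1.h and 0.00081 for Tubb2a.d. The cause was not tested. All 8 dynactin estimates were higher under every scaling, and 7 of 8 without ARM replicate 2, normal replicate 1 or normal replicate 2.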
